A study of Homo sapiens with 4 samples.

Results

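ISG15 and the enzymes that attach and remove it were followed in HEK293 cells, which derive from human embryonic kidney and are immortalized, after a synthetic double-stranded RNA was delivered into the cells. The members are the 6 genes ISG15, UBA7, UBE2L6, HERC5, HERC6 and USP18, found by their symbols in the platform annotation. Each was measured by 1 probe, and all 6 passed detection on all 4 arrays, as did 15736 of the 18637 named genes on the array. The 4 groups, of 1 array each, were LGP2-4KR transgenic cells transfected 12 h earlier with short poly I:C at 100 ng/ml, the same cells unstimulated (0 h), LGP2 transgenic cells 12 h after that transfection, and LGP2 transgenic cells unstimulated. LGP2 is the helicase DHX58, a RIG-I-like receptor that binds double-stranded RNA, and the labels do not define 4KR. Both lines carry a transgene. No array of parental HEK293 cells, mock-transfected cells or cells left untransfected for 12 h was analysed here, so poly I:C, the transfection and the time in culture cannot be told apart. The labels do not say what promoter drives the transgenes or whether each line is 1 clone.

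ISG15 is a ubiquitin-like protein that is joined to lysines of target proteins through its C-terminal glycines. The chain of enzymes runs from the E1 activating enzyme UBA7, through the E2 conjugating enzyme UBE2L6, to the ligase HERC5, which acts at ribosomes on newly made proteins in human cells. USP18 is the protease that removes ISG15, and it also binds the interferon receptor subunit IFNAR2 and dampens type I interferon signalling. These genes are known as interferon-stimulated genes, controlled in part through a promoter sequence called the interferon-stimulated response element.

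Promoter sequence is shown for the member with the largest response, ISG15, for the ligase gene HERC5, and for HERC6, the gene next to HERC5 on chromosome 4, whose response was smaller. Each is the RefSeq window of assembly GRCh38.p14 from 250 bases before to 50 bases after the annotated start, on the plus strand, and capitals mark matches to GAAANNGAAA on either strand, the core of the interferon-stimulated response element. The windows are chr1:1013247-1013546 for ISG15, chr4:88456869-88457168 for HERC5 and chr4:88378602-88378901 for HERC6.
ISG15: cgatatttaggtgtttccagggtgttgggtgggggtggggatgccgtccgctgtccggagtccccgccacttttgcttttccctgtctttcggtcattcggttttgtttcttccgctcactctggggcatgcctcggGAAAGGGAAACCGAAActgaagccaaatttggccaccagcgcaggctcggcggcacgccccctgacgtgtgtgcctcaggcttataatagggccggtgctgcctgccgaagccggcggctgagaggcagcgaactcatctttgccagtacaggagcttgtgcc
HERC5: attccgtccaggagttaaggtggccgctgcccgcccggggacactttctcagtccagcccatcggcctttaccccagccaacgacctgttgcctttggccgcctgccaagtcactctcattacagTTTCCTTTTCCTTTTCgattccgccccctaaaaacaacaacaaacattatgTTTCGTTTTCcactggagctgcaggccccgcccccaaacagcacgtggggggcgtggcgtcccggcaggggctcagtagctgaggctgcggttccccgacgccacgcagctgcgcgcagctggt
HERC6: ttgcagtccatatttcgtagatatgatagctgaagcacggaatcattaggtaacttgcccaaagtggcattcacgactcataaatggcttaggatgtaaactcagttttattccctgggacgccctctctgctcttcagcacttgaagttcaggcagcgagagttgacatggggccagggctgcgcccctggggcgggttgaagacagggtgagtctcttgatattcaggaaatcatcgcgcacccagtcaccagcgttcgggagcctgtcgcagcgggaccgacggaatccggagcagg

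The ISG15 window held 2 overlapping matches on the plus strand, whose first bases lie at -113 and -107 from the start. The HERC5 window held 3 matches on the minus strand, beginning at -125, -119 and -74, of which the first pair overlap. The HERC6 window held 0 matches, as did both windows of UBE2L6 on chromosome 11. The letters TTCNNNGAA, searched on both strands as the core of the gamma-activated site, had 0 matches in all 5 windows. Promoter windows were used for 4 of the 6 members, and UBA7 and USP18 are named only. Of all 35116 windows of 300 bases, 3.57% held GAAANNGAAA and 0.259% held it at 2 or more positions, while 7.66% held TTCNNNGAA. Among the 67 windows of 50 genes at least 2-fold higher at 12 h in both lines, a set chosen by the response that includes ISG15 and HERC5, 37.3% held GAAANNGAAA and 25.4% held TTCNNNGAA. A match is a description of the letters and not a binding site, and a window without one says nothing of the rest of the gene.

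The 4 arrays detected between 83.2% and 89.2% of gene probes, where detected means a signal more than 2 SD above the mean of the array's 384 blank spots. The stimulated arrays were the brighter ones before normalization. All 5 measured HEK293 markers (VIM, KRT18, NEFL, NEFM and PAX2) were detected on all 4 arrays. PTPRC, MS4A1 and ALB, markers of leukocytes, B cells and hepatocytes, were detected on 0 arrays, whereas at least 1 probe of CD14, CD3E and DCN was detected on all 4. DHX58, the gene of LGP2, had deposited intensities of 42.6 and 22.8 in 4KR cells at 12 h and 0 h and of 51.0 and 41.4 in LGP2 cells. The position of its probe in the transcript was not given, so it does not check the transgenes.

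The first question was how each line differed between 12 h of stimulation and no stimulation. The modifier itself had by far the largest response of the 6 genes, and the ligase HERC5 and the protease USP18 followed. UBE2L6 and HERC6 were higher too, by less than 2-fold after normalization and by more than 2-fold in the deposited table. The E1 gene UBA7 was at nearly the same level at both times. Levels are given as intensities of the deposited table, whose median is 25 on every array, and responses as log2 ratios of the scanner values after normexp background correction with an offset of 50 and quantile normalization. With 1 array a group, no single ratio has a standard error.

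ISG15 had deposited intensities of 2794 and 78.1 in 4KR cells at 12 h and 0 h, and of 2907 and 70.3 in LGP2 cells. Both stimulated arrays were far above both unstimulated ones. On the log2 scale, 12 h over 0 h came to 4.82 in 4KR cells and 4.84 in LGP2 cells, about 28.2-fold and 28.7-fold. In the deposited table the ratios were 35.8-fold and 41.3-fold. ISG15 had the 5th largest ratio of all genes in each line, among 16749 genes ranked in 4KR cells and 16957 in LGP2 cells. The gene was expressed before stimulation as well: its unstimulated signal stood 130.4 scanner units above the blank spots in 4KR cells and 120.7 in LGP2 cells, against SDs of the blank spots of 1.08 and 1.05.

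**Figure D1:**
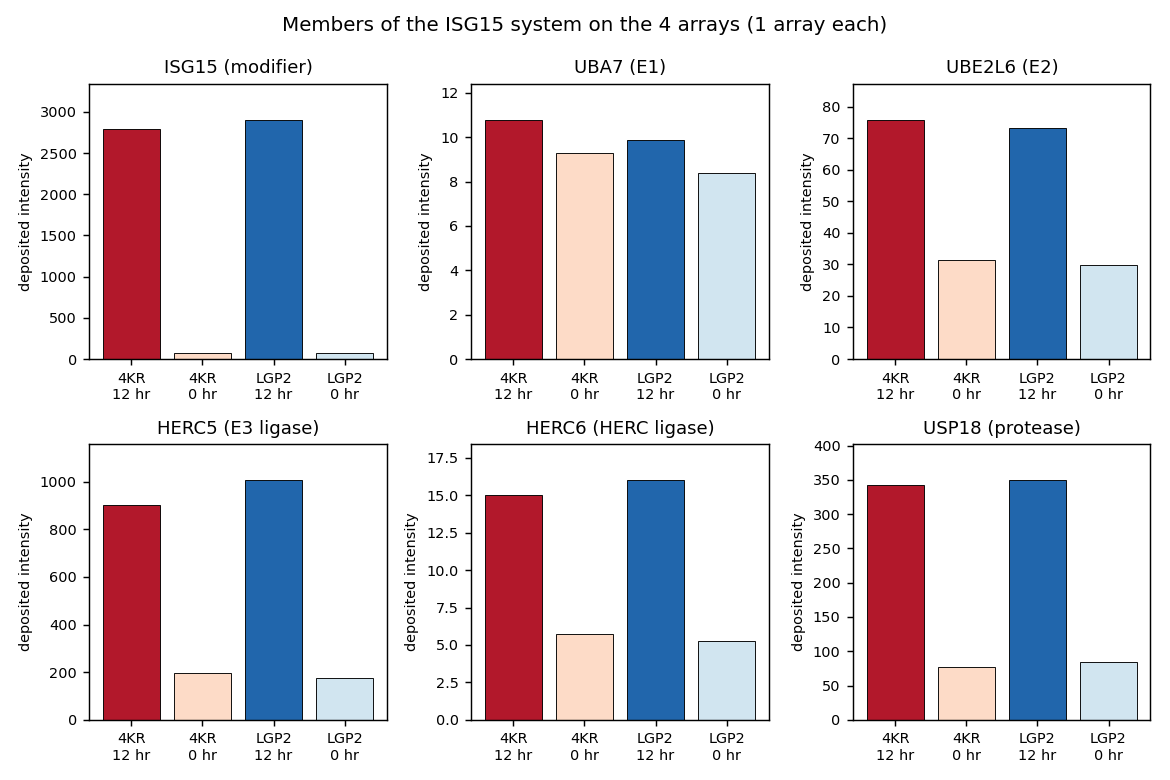
Deposited intensity (linear axis from 0, each array scaled to a median of 25) of the 6 members on the 4 arrays, 1 bar for each array with no error bar because each group has 1 array. The axes differ between panels and levels cannot be compared between genes, since each has its own probe. ISG15, HERC5, USP18, UBE2L6 and HERC6 are higher on both 12 h arrays than on both 0 h arrays, while UBA7 runs only from 8.39 to 10.8.

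Of the enzymes that build the conjugate, the E1 UBA7 had deposited intensities of 10.8 and 9.30 in 4KR cells at 12 h and 0 h, and of 9.90 and 8.39 in LGP2 cells. These values lie close together, with the stimulated arrays a little above the unstimulated ones. After normalization the log2 ratio was 0.01 in 4KR cells and -0.02 in LGP2 cells. With a pseudocount of 1, the deposited values gave 0.20 and 0.21, where the median of all genes was 0.14 and 0.23. The probe was dim but measured, at 20.4 and 14.4 blank SDs above the blank level in 4KR cells and 16.3 and 13.7 in LGP2 cells. It lies in block 21 of the array's 24 blocks, where the difference of the responses had a median of -0.09 over 1014 probes. Subtracting the block medians gave responses of 0.02 in 4KR cells and -0.07 in LGP2 cells.

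UBE2L6, the E2 that receives ISG15 from UBA7, had deposited intensities of 75.9 and 31.4 in 4KR cells at 12 h and 0 h, and of 73.1 and 29.7 in LGP2 cells. The groups at 12 h were about 2.42-fold and 2.46-fold above those at 0 h in that table. The normalized log2 ratios were smaller, 0.71 in 4KR cells and 0.63 in LGP2 cells, which is 1.63-fold and 1.55-fold. These ratios were the 152nd largest in 4KR cells and the 254th largest in LGP2 cells, above 99.1% and 98.5% of the genes ranked.

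HERC5, the human ISG15 ligase, had deposited intensities of 903.4 and 197.7 in 4KR cells at 12 h and 0 h. In LGP2 cells the values were 1006 and 176.1. The log2 ratios were 2.05 in 4KR cells and 2.22 in LGP2 cells, or 4.15-fold and 4.67-fold, the 25th and 23rd largest in their lines. HERC6, a related ligase that attaches ISG15 in mouse, lies next to HERC5 in the RefSeq annotation. It had intensities of 15 and 5.70 in 4KR cells and of 16 and 5.27 in LGP2 cells, again higher on both stimulated arrays. The deposited ratios of HERC6 were 2.63-fold and 3.04-fold. With the offset of 50, which shrinks the ratios of dim probes, its log2 ratios were 0.30 and 0.33, and with an offset of 16 they were 0.56 and 0.62. At the offset of 50 the HERC6 ratios ranked 1144th in 4KR cells and 1040th in LGP2 cells, above 93.2% and 93.9% of the genes ranked. Both lay below the 95th percentiles of all genes, 0.35 and 0.37.

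USP18, the protease that reverses the modification, had deposited intensities of 342.8 and 76.5 in 4KR cells at 12 h and 0 h, and of 349.3 and 83.6 in LGP2 cells. The log2 ratios were 1.76 in 4KR cells and 1.58 in LGP2 cells, or 3.39-fold and 2.98-fold. They ranked 29th and 34th among the genes of their lines. RefSeq lists a pseudogene copy, USP41P, on the same chromosome, and the probe's sequence is not in the sources used here, so whether it tells the copies apart is not known.

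Counted by the rule of at least 2-fold with detection on the brighter array, 3 of the 6 members were higher in 4KR cells, where 0.406% of the genes ranked were called. The count was likewise 3 of 6 in LGP2 cells, where 0.431% were called. They were ISG15, HERC5 and USP18 in both lines, a condition that 0.355% of 16623 genes met. The median log2 ratio of the 6 members was 1.23 in 4KR cells and 1.10 in LGP2 cells, beside -0.01 over all genes in each line. UBE2L6 and HERC6 passed 2-fold as well when the blank level was simply subtracted, with log2 ratios of 1.11 and 1.17 in 4KR cells and of 1.02 and 1.29 in LGP2 cells. That setting called 2.51% of all genes in 4KR cells and 3.13% in LGP2 cells. The deposited table on a log2(value + 1) scale also counted 5 of 6 in each line, with 2.04% and 3.72% of all genes called. UBA7 stayed below 2-fold in both lines by each of these methods.

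**Figure D2:**
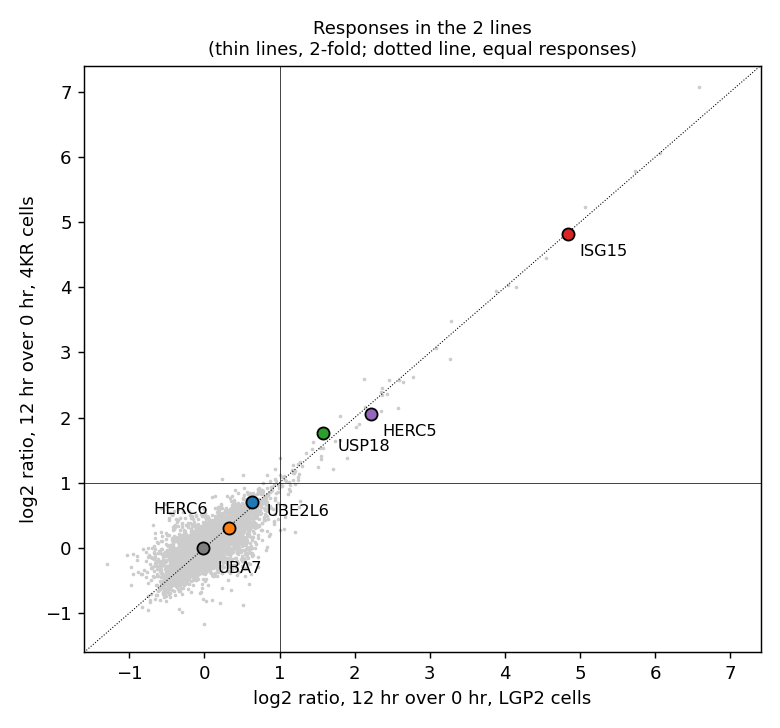
Log2 ratio of 12 h over 0 h in 4KR cells (vertical) against LGP2 cells (horizontal) for every detected gene (grey) and the 6 members (coloured). ISG15, HERC5 and USP18 lie past 2-fold (thin lines) in both lines and close to the line of equal responses (dotted). UBE2L6 lies above the 95th percentile of all genes in both lines and HERC6 below it. UBA7 lies at the centre of the mass of genes.

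The order of the responses was ISG15, HERC5, USP18, UBE2L6, HERC6 and UBA7 in both lines. The gap between ISG15 and HERC5 was 2.76 on the log2 scale in 4KR cells and 2.62 in LGP2 cells, and that between USP18 and UBE2L6 was 1.06 and 0.94. HERC5 and USP18 stood 0.29 apart in 4KR cells and 0.65 in LGP2 cells. In all 5 neighbouring pairs of this order the gap was larger than the difference between the lines of either gene, which was at most 0.19, but no replicate array gives a spread. UBE2L6 and HERC6 changed places with the method: HERC6 had the larger ratio of the pair in both lines in the deposited table and with plain subtraction. Of 20 orders, from 10 methods in each line, 16 had UBE2L6 ahead and 4 had HERC6 ahead, and the other places did not change.

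**Figure D3:**
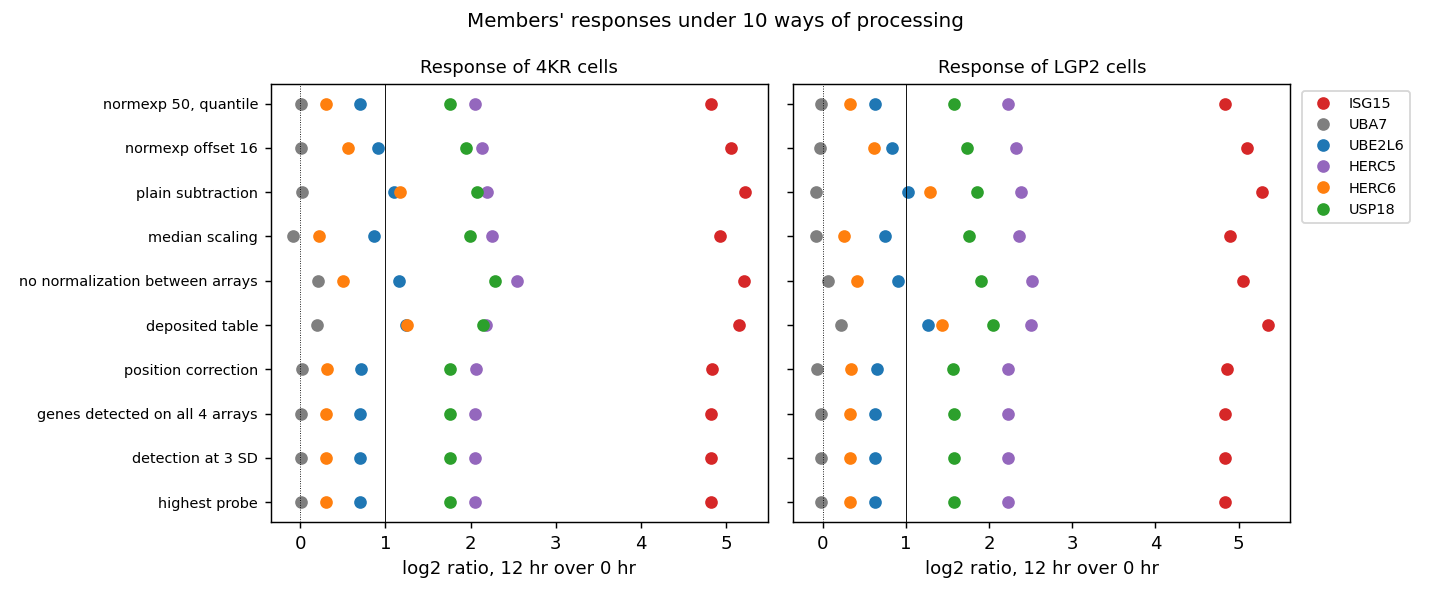
Log2 ratio of 12 h over 0 h for the 6 members in 4KR cells (left) and LGP2 cells (right) under 10 ways of processing, 1 row each; the solid line marks 2-fold and the dotted line no difference. ISG15 stays between 4.82 and 5.35 and UBA7 between -0.08 and 0.21. HERC6 moves from 0.22 (4KR cells, median scaling) to 1.44 (LGP2 cells, deposited table).

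A test of stimulation was made with the lines as replicates. An additive limma fit of stimulation and line, with 1 residual degree of freedom a gene before moderation, was made over the 17083 genes detected on at least 1 array. Its spread is the disagreement of the 2 responses, drawn by moderation toward a value pooled over all genes (2.28 prior degrees of freedom). The SE of a gene thus reflects how alike the lines were over all genes as well as for that gene. It does not measure culture-to-culture variation. In this fit 5 of the 6 members were higher at 12 h with a Benjamini-Hochberg adjusted p under 0.05, where 7.96% of all genes were called higher. The log2 difference of 12 h minus 0 h was 4.83 ± 0.03 for ISG15 (SE, limma adjusted p = 0.0010), 2.14 ± 0.06 for HERC5 (adjusted p = 0.00996) and 1.67 ± 0.06 for USP18 (adjusted p = 0.0157). It was 0.67 ± 0.04 for UBE2L6 (adjusted p = 0.0231) and 0.31 ± 0.03 for HERC6 (adjusted p = 0.0261). UBA7 did not pass, at -0.01 with a 95% interval from -0.10 to 0.09 and a limma adjusted p of 0.911. With plain subtraction 3 members passed and 0.433% of genes were called higher, and the limma adjusted p was 0.0777 for UBE2L6 and 0.0719 for HERC6. These were the highest values of the 11 settings for both genes, while ISG15, HERC5 and USP18 stayed at or below 0.00713, 0.0337 and 0.0453.

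The second question was whether 4KR cells responded differently from LGP2 cells. For the 6 members the responses were close. The response in 4KR cells minus that in LGP2 cells was highest for USP18 at 0.19 and lowest for HERC5 at -0.17, and was 0.07 for UBE2L6, 0.02 for UBA7, -0.02 for ISG15 and -0.03 for HERC6. None of the 6 reached 2-fold, as was the case for all but 0.0572% of the 15736 genes detected on all arrays. All 6 lay between the 5th and 95th percentiles of those genes, -0.21 and 0.21. The difference of USP18 was above 0 in 10 of 10 settings, from 0.10 in the deposited table to 0.37 without normalization between arrays. That of HERC5 ranged from -0.32 in the deposited table to 0.03 without normalization between arrays, a setting in which the median over genes was 0.11. The differences of ISG15, UBA7, UBE2L6 and HERC6 also changed sign in at least 1 setting. These differences have no replicate check.

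The levels themselves also differed little between the lines. Without stimulation, the log2 ratio of 4KR over LGP2 cells ran from -0.08 for USP18 to 0.17 for HERC5, with ISG15 at 0.13. HERC5 alone lay above the 95th percentile of all genes, 0.13. At 12 h the ratio ran from -0.01 for HERC6 to 0.11 for UBE2L6, with ISG15 and USP18 both at 0.10 and HERC5 at 0.00, and all 6 lay between the 5th and 95th percentiles. In the deposited table the 12 h ratios of ISG15, HERC5, HERC6 and USP18 were below 0, at -0.06, -0.16, -0.09 and -0.03. Those of UBA7 and UBE2L6 were 0.11 and 0.05 there, where the median of all genes was -0.10. In each comparison 0 of 6 members were 2-fold apart, where 0.0186% of genes were without stimulation and 0.0117% at 12 h. With the 2 times as replicates of each line, the additive limma fit called 0 of 17083 genes between the lines (0%), with 829 at an unadjusted p under 0.05. Its difference of 4KR minus LGP2 for ISG15 was 0.11 with a 95% interval from 0.02 to 0.21 (limma adjusted p = 0.872). The spread behind these intervals is again the disagreement of the 2 responses, moderated over all genes, and does not measure culture-to-culture variation. The other 5 members had intervals that included 0 and stayed between -0.17 for USP18 and 0.25 for HERC5.

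**Figure D4:**
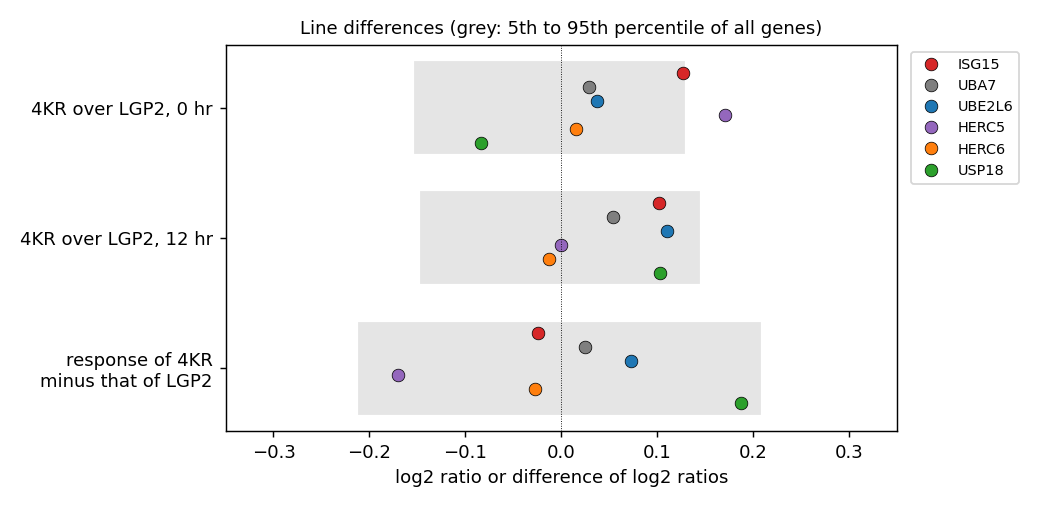
Log2 ratio of 4KR over LGP2 cells at 0 h and 12 h, and the difference of their responses, for the 6 members (points, set apart vertically for legibility) with the 5th to 95th percentiles of all genes as grey bands. HERC5 at 0 h, at 0.17, is the 1 point outside its band.

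Other genes of the ISG15 pathway had small ratios. Of 13 listed, 12 were measured and 11 detected on at least 1 array, and 0 were 2-fold higher or lower in either line. Of all genes ranked, 0.412% were 2-fold apart in 4KR cells and 0.442% in LGP2 cells, so a count of 0 does not set so short a list apart. Their median log2 ratio was -0.04 in 4KR cells and -0.10 in LGP2 cells, beside -0.01 over all genes. TRIM25, a ubiquitin ligase of the RIG-I pathway that can also act as an ISG15 ligase, had intensities of 61.1 and 34.7 in 4KR cells at 12 h and 0 h, and of 63.8 and 35.2 in LGP2 cells. Its log2 ratios were 0.39 and 0.37 (limma adjusted p over both lines = 0.0245). ARIH1, listed with TRIM25 among the ISG15 ligases and cofactors, was at 0.09 in 4KR cells and 0.22 in LGP2 cells. IFNAR2, the receptor subunit that USP18 binds, was at -0.04 in 4KR cells and -0.20 in LGP2 cells, and SKP2, a ubiquitin ligase subunit that targets USP18, was at -0.12 and -0.10.

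Among other proteases reported to take ISG15, USP16 was at 0.36 in 4KR cells and 0.30 in LGP2 cells, and USP5 at -0.47 and -0.29, each with a limma adjusted p under 0.05 over both lines (0.0271 and 0.0409). With TRIM25, 3 of the 11 detected pathway genes passed that fit, where 2606 of 17083 genes passed in either direction. The list as a whole was not tested. USP13 and USP14 were at -0.11 and -0.14 in 4KR cells and at -0.13 and -0.02 in LGP2 cells, and USP2 was detected on 0 arrays. The subunits of the receptor for extracellular ISG15 were ITGAL, at -0.10 and -0.21, and ITGB2, which was detected only on the 4KR array at 12 h with an intensity of 1.80.

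The relatives of the members in other ubiquitin-like pathways were read by role. Of 42 listed, 29 were measured, all of them detected, and 0 were past 2-fold in either line, which at the same shares of 0.412% and 0.442% of all genes is no result about the list. The medians were -0.07 in 4KR cells and 0.01 in LGP2 cells. Among the modifiers, UBD, the interferon-inducible FAT10, was not above background in unstimulated cells of either line and had intensities of 11.5 in 4KR cells and 13.4 in LGP2 cells at 12 h. URM1, another ubiquitin-like protein, was at -0.31 and -0.30. The ubiquitin E1 UBA1 was at -0.71 in 4KR cells and -0.30 in LGP2 cells, and UBA3, the catalytic subunit of the NEDD8 E1, at -0.16 and -0.35.

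Among the E2 genes, UBE2E3 was at -0.28 in 4KR cells and -0.18 in LGP2 cells, and UBE2N, which makes lysine-linked ubiquitin chains in innate signalling, at 0.04 and -0.33. Of the 4 other HERC ligases, 0 were past 2-fold. HERC2 was at -0.33 and -0.34, and HERC3, which lies near HERC5 and HERC6 on chromosome 4, at -0.10 and -0.08. Of the other ubiquitin-specific proteases, USP1 was at 0.55 in 4KR cells and 0.56 in LGP2 cells (limma adjusted p = 0.0232), and USP4 at 0.00 and 0.61. Over all roles, 7 of the 29 relatives passed the additive limma fit, as did 2606 of all 17083 genes.

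The genes beside the members on their chromosomes were also read, a set chosen after the data were seen. HES4, next to ISG15 on chromosome 1, was at 0.84 in 4KR cells and 0.64 in LGP2 cells, and AGRN on its other side at -0.14 and -0.35. PPM1K, beside HERC6, was at 0.53 and 0.49. The neighbours of UBA7 on chromosome 3, INKA1 and TRAIP, were at 0.04 and 0.29 in 4KR cells and at 0.13 and 0.25 in LGP2 cells. SMTNL1 and SERPING1, beside UBE2L6, were at 0.03 and 0.07 in 4KR cells and at -0.06 and 0.04 in LGP2 cells, and SERPING1 was detected on 1 array. TUBA8, beside USP18, was at -0.13 and -0.04. The named neighbours that are not members were all below 2-fold in both lines. Only 0.412% of all genes were 2-fold apart in 4KR cells and 0.442% in LGP2 cells, so this is no result about the neighbours.

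Regulators of these genes were measured on the same arrays. IRF7 and IRF1, interferon regulatory factors, were at 2.02 and 1.65 in 4KR cells and at 1.80 and 1.80 in LGP2 cells. IFNB1, which encodes interferon beta, was at 4.04 in both.

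Genes with the pattern most like each member over the 4 arrays were found by the root mean square difference of centred log2 levels among the 15735 other genes detected on all arrays. ISG15 lay nearest to RIGI, the RNA sensor, at 0.39, IFNB1 at 0.39 and IFIT2, an interferon-induced RNA-binding protein, at 0.46. HERC5 lay nearest to ISG20, an interferon-induced exonuclease, at 0.05, OR9I1 at 0.07 and PLSCR1 at 0.09, and USP18 to IFIT5 at 0.08, IRF1 at 0.09 and IER3 at 0.10. UBE2L6 lay nearest to ANXA2R, ZNF222 and ZNF317, each at 0.01. Between members, HERC5 and USP18 were 0.25 apart, while UBA7 and HERC6 were 0.16 apart and ISG15 was at least 1.35 from every other member. This distance depends on the size of the responses, and the normexp offset shrinks those of dim probes such as UBA7 and HERC6. Their small distance therefore does not show a shared response. In the deposited table HERC6 was 2.63-fold higher at 12 h in 4KR cells and 3.04-fold in LGP2 cells. The ratios of UBA7 there were 1.16-fold and 1.18-fold. In bulk RNA such as this, a response in fewer cells and a smaller response in each cell cannot be told apart.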

How the data were processed

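RNA was labelled with Cy5 and hybridised to single-colour arrays, 1 for each of 4 groups. Per the file headers, the deposited scanner tables hold the median intensity of each spot, merged from 3 gains and not normalized. The authors' deposited series table gives a processed intensity for each probe, equal to the spot signal less about the blank level and scaled to a median of 25. The files name no genome build. The scanner's background column tracked the signal itself (correlation of logarithms at least 0.991), so the mean blank spot served as background.

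From the scanner values, limma 3.58.1 in R 4.3.3 gave normexp-corrected values (offset 50, all spots), which were quantile normalized over 24460 gene probes and taken to log2. Probes flagged at any gain (4) were left out and probes of a gene averaged, which left 18637 genes, named through the platform annotation (21707 probes with 1 symbol, 0 with several, 2753 unnamed). Scripts were tested on simulated data. The number of arrays limits the precision. The ratios of 12 h over 0 h and of 4KR over LGP2 cells have no test, and an additive limma fit with eBayes used the lines as replicates of stimulation and the times as replicates of line. The members and gene lists were chosen with earlier results of these data known. Named besides the members were genes of a list past 2-fold in either line (1 regulator past it is not reported here), otherwise the 2 with the largest mean response, and the 3 nearest in pattern. Alternatives were an offset of 16, plain subtraction, median scaling, no normalization between arrays, the deposited table, a position correction, a filter on dim probes, detection at 3 SD, the highest probe, and eBayes with trend and robust.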

Additional observations from a re-analysis of the deposited data

Results flagged for a closer look

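UBA7 had responses of opposite sign in the 2 lines, with a difference of 0.024 (4KR minus LGP2, log2), from 0.01 in 4KR cells and -0.02 in LGP2 cells. The difference was not tested, and both values lie near 0. With median scaling both were negative, at -0.08 in each line. In 4KR and LGP2 cells both were positive at 0.20 and 0.21 in the deposited table, and at 0.21 and 0.07 without normalization between arrays. The medians of all genes were -0.06 and -0.05 with median scaling, 0.14 and 0.23 in the deposited table, and 0.23 and 0.10 without normalization.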

How the results depend on the processing

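The members' single values were recomputed in 330 combinations of value and alternative, of which 319 stayed on their side of the threshold, 9 gained a call and 2 lost one. The sign differed from the reported value's in 19 of them, 0 of which were called in either setting; the reported values were at most 0.17 in size there, and the alternative ones at most 0.21. The number of members past 2-fold in a response was 3 of 6 in each line and 5 of 6 both in the deposited table and after subtracting the blank level (plain subtraction), where UBE2L6 and HERC6 were added. It was 4 in 4KR cells without normalization between arrays, where UBE2L6 was at 1.16. The offset of 50 by its construction shrinks dim probes. The members past the limma test numbered 5, and 3 with plain subtraction, where UBE2L6 and HERC6 lost their calls and far fewer genes passed overall (74 against 2606). The cause was not tested. That total was 7366 with median scaling and 6948 without normalization between arrays, while ISG15, HERC5 and USP18 passed in 11 of 11 settings. No replicate could be left out, since each group has 1 array. The labels give no replicate numbers, so none could be used as a block; the additive limma fit itself sets 12 h against 0 h within each line.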
